A study of Drosophila melanogaster with 2 samples.

Results

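Binding of l(3)neo38-GFP, a tagged zinc finger protein, was described at 10 genes of the Notch pathway: the receptor N, its ligands Dl and Ser, the regulators mib1, neur, numb and fng, and the nuclear components Su(H), mam and H. The genes were chosen by name, with earlier results of these data known. All summits of the authors' thresholded peak list on dm6 that lay in the gene body or within 2000 bp of it were taken, which gave 22 of the 3953 summits in all. These summits fell at 6 of the 10 genes, whereas 18.3% of the 13945 protein-coding genes had a summit in the same kind of region. The median length of the 10 was 22832.5 bp, against 2166 bp for all protein-coding genes, so shares by gene length are given below. The genes with summits were mam with 10, neur with 6, N and mib1 with 2 each, and numb and fng with 1 each. Dl, Ser, Su(H) and H had none.

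The Notch pathway carries signals between neighbouring cells. A ligand on one cell pulls on the receptor N of the next, N is cleaved, and its intracellular domain enters the nucleus, where it joins the DNA-binding protein Su(H) and the coactivator mam to switch on genes of the E(spl) complex. In the fly embryo the pathway limits how many cells of the ectoderm become neuroblasts, and it separates sister cell fates after asymmetric divisions.

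The data came from chromatin immunoprecipitation with sequencing (ChIP-seq) of whole embryos of 0 to 24 h, males and females pooled, in 2 biological replicates of 1 group. Per the labels, both replicates came from a transgenic line (strain l(3)neo38-GFP) in which GFP is fused to the C-terminus of l(3)neo38, and the chromatin, sonicated to 200 to 800 bp, was precipitated with an antibody to GFP. Each list therefore mixes all tissues and all stages of embryogenesis, and a summit present in few cells cannot be told apart from a weak one in many. Untagged embryos and other factors were not analysed here, so no conditions were compared, no test was made, and a peak is described only as a peak. Peak lists hold no expression levels, so the labelled stage could not be compared with marker genes. The read depth is unknown. Each entry has a signal value, the authors' own measure of peak strength, which is used below only to rank entries within a list, where rank 1 is the strongest.

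The sequence under a summit shows what the intervals contain. As examples, 8 windows of 101 bp are printed, with none from mam, which held 10 of the 22 summits. The printed windows cover both summits at N, the stronger one at mib1, the strongest one at neur, and the summits of numb and fng. An intronic and an internal-start summit of neur are also covered. All are the plus strand of the release 6 genome (dm6), 50 bp to either side of the summit, and none is UTR sequence. Capitals mark the letters GAGAG or CTCTC, the core of the GAGA element, and runs of at least 4 C or 4 G.
N, intron 1, chrX:3140165-3140265: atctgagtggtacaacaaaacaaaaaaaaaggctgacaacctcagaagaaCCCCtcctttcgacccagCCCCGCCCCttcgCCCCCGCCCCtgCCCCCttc
N, intron 5, chrX:3163127-3163227: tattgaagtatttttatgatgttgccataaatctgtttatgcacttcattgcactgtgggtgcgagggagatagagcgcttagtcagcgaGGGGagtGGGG
mib1, coding exon, chr3L:16011504-16011604: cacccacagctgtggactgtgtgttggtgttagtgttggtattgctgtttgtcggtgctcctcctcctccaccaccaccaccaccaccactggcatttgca
neur, beyond the 3' end, chr3R:9019760-9019860: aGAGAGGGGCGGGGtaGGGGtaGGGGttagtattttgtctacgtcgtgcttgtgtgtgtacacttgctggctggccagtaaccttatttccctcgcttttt
neur, intron 1, chr3R:9027186-9027286: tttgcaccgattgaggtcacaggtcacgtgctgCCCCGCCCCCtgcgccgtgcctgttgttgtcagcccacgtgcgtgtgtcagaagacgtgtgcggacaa
neur, near the internal start, chr3R:9033977-9034077: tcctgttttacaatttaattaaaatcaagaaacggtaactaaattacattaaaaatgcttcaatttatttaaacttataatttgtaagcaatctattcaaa
numb, near the internal start, chr2L:9449593-9449693: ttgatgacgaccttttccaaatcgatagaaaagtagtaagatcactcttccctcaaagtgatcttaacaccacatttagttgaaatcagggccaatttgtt
fng, intron 1, chr3L:20944281-20944381: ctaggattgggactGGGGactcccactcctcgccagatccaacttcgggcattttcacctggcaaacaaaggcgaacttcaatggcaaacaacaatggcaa

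The windows differed widely in composition. The N window of intron 1 and the neur window of intron 1 each held C-runs joined by a single base. The strongest neur window, which lies beyond the 3' end of neur, held the same pattern as G-runs. The neur window near the internal start was 19.8% G or C and held no capitals, and the numb window was 36.6% G or C and held none either. The mib1 window, at 55.4% G or C, also had no run of 4, and it carried a row of CAC repeats. Over all 22 member windows the median was 51.5% G or C, with a range of 18.8% to 64.4%, against a median of 50.5% over all 3953 thresholded windows.

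Named motifs were searched on both strands of the 22 windows. CCCACCCC was in 0 of 22 and in 6.37% of all thresholded windows, and any of CCCACCCC, CCCCACCC, CCCCCACC and CCACCCCC was in 0 of 22 and in 14.1% of all. GAGAG was in 6 of the 22 member windows, 2 at neur and 4 at mam, which is 27.3% against 27.1% of all. Of the 2 at neur, that of the strongest summit lies beyond its 3' end, near the start of another gene, tgo. A site of the Su(H) protein, written CGTGGGAA, TGTGGGAA, CGTGAGAA or TGTGAGAA, was in 0 of 22 and in 1.39% of all. CAGGTAG, the site of the early embryonic activator Zelda, was in 0 of 22 and in 0.557% of all. A run of at least 4 C or 4 G, a pattern added after the data were seen and one that overlaps the C-rich 8-mers, was in 11 of 22 windows and in 65.7% of all. A pair of such runs joined by a single base, also added after the data were seen, was in 5 of 22 windows, or 22.7%, and in 10.9% of all. With 22 windows, 1 window moves a share by several percentage points, and a missing match says only that these letters were not within 50 bp of the summit.

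At transcript starts, 3 of the 10 genes (mib1, neur and numb) had a thresholded summit within 500 bp of any of their starts, whereas 8.24% of protein-coding genes had one. Among genes of like length (0.8 to 1.25 times that of each gene) the share was higher, from 9.18% for Su(H) to 26.6% for N, so 3 of 10 is to be read against these shares too. Of the 22 summits, 8 lay within 500 bp of a start of any gene and 14 lay in introns away from starts. The signal of the 22 ran from 140.8 to 829.2 with a median of 236.9, and 13 of them were among the stronger 1976 of the thresholded list. Over the whole list the signal ran from 140.7 to 3625 with a median of 209.6.

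Gene length differed between these genes and the rest of the genome. The median length of the 10 was 22832.5 bp, against 2166 bp for all protein-coding genes, and 7 of them were longer than 15 kb. A longer gene offers more sequence for a summit to fall in. Among protein-coding genes of 20 to 40 kb, 52.4% had a summit in the gene or within 2000 bp, and 3 of the 5 Notch genes of that length did (N, numb and fng, but not Dl or Ser). The share was 15.6% among genes of 2 to 5 kb, where Su(H) had none, and 26.4% among genes of 5 to 10 kb, where mib1 had a summit and H had none. It was 38.8% among genes of 10 to 20 kb, which include neur, and 57.7% among genes over 40 kb, which include mam. The count of 6 of 10 is therefore to be read against these shares and not against 18.3% alone. For neur, mam and mib1, few genes of like length had as many summits. Of the 492 genes with 0.8 to 1.25 times the length of neur, 2.03% had at least 6, but 2 of the 6 summits of neur lie beyond its 3' end at the start of another gene. Counted inside the gene bodies only, neur had 4 and 5.69% of those genes had at least 4. Of the 146 such genes for mam, 5.48% had at least 10, and of the 1271 for mib1, 7.24% had at least 2. The 2 summits of mib1 share 1 interval, however, and 22.7% of those 1271 genes had at least 1 summit.

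**Figure D1:**
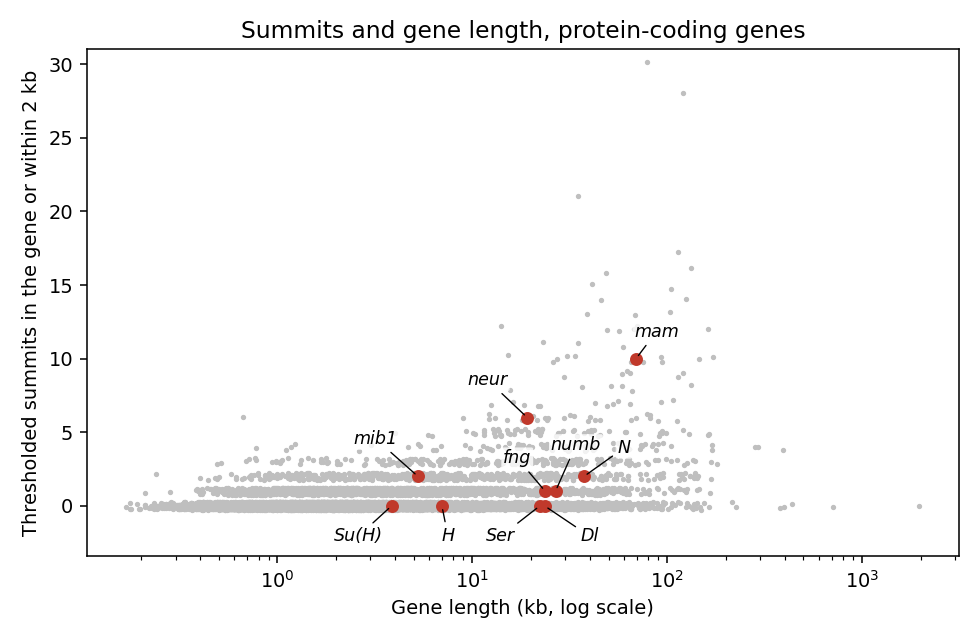
Number of thresholded summits in the gene or within 2 kb (y axis) against gene length in kb (x axis, log scale) for all protein-coding genes (grey, spread slightly in height so that points do not hide each other) and the 10 Notch pathway genes (red). Neur with 6 summits and mam with 10 stand above most genes of their length, while Dl and Ser, each longer than 20 kb, lie at 0.

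N (FBgn0004647), the receptor, lies at chrX:3134870-3172221 on the plus strand and had 2 summits, both in introns and both far from its single start. The first, at 3140215, was 5345 bp downstream of the start in intron 1 of 8. Its signal was 188.7 at rank 2385, and the matching summits held rank 2740 in replicate 1 and rank 2532 in replicate 2. The other, at 3163177 in intron 5, lay 28307 bp downstream of the start with a signal of 235.8 at rank 1600. It held rank 1210 in replicate 1 and rank 3146 in replicate 2, so the order of the 2 summits was reversed between the replicates. Of the 312 genes of like length, 51.3% had a summit and 32.7% had at least 2.

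Dl (FBgn0000463, named Delta in the annotation), the main Notch ligand of the embryo, lies at chr3R:19302731-19326217 on the minus strand. It had no thresholded summit, and the nearest one was 76994 bp from the gene. The pooled list of 30000 entries, which includes background, held 10 entries at Dl. The strongest, at 19321996 in an intron 4221 bp from the start, had a signal of 93.6 at rank 7309, with rank 5837 in replicate 1 and rank 6934 in replicate 2. The lowest signal in the thresholded list was 140.7. Of the 404 genes of like length, 50.7% had a thresholded summit.

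Ser (FBgn0004197), the second Notch ligand, lies at chr3R:27172090-27194267 on the minus strand. It had no thresholded summit either, but one lay 2764 bp from the gene, and its strongest pooled entry came close to the threshold. That entry, at 27194126 in the 5' UTR, lay 131 bp from the nearer of its 2 starts and 141 bp from the 5' end of the gene. Its signal was 130.1 at rank 4470. Replicates disagreed on this entry: it held rank 2609 in replicate 2, inside the strongest 3953 entries, and rank 9674 in replicate 1, outside them.

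The ligands need a ubiquitin ligase to be endocytosed and so to pull on N, and mib1 and neur both encode one. At mib1 (FBgn0263601, chr3L:16006552-16011812, minus strand) both summits shared the interval 16011280 to 16011902 at the 5' end of the gene. The stronger, at 16011554, lay in a coding exon 258 bp downstream of the start, with a signal of 691.3 at rank 115. It held rank 157 in replicate 1 and rank 120 in replicate 2. The weaker, at 16011758, lay 204 bp away in the 5' UTR, 54 bp from the start, with a signal of 370.0 at rank 633, rank 823 in replicate 1 and rank 630 in replicate 2. Both replicates therefore ranked the pair in the same order. A further pooled entry at 16012742, 930 bp upstream of the start, had a signal of 139.8 at rank 3995 and fell just outside the threshold, while the weakest of the 22 summits, one of mam with 140.8 at rank 3946, fell just inside it. Of the 1271 genes with a length like that of mib1, 12.6% had a promoter summit.

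At neur (FBgn0002932, chr3R:9020348-9039471, minus strand) 4 summits lay in the gene and 2 beyond its 3' end. Those 2 were the strongest of the 6, and they sat at the start of another gene: the summits at 9019810 and 9020010 were 212 bp and 12 bp from a transcript start of tgo, which encodes the bHLH-PAS protein Tango, the partner of several tissue-specific factors in the embryo. The summit at 9019810 had the highest signal of all 22, 829.2 at rank 61, with rank 69 in replicate 1 and rank 74 in replicate 2. The summit at 9020010, 200 bp away, had a signal of 397.8 at rank 531, with rank 859 in replicate 1 and rank 1778 in replicate 2. Both lay over 13 kb from the nearest start of neur and entered its count only because they were within 2000 bp of its 3' end.

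Inside neur all 4 summits were weaker. The summit at 9034027 lay 296 bp upstream of an internal start of neur at 9033731, with a signal of 209.0 at rank 1983. It held rank 1277 in replicate 1 and rank 5357 in replicate 2, and it was the one summit that counted neur among genes with a promoter summit. With the strongest 3953 entries of replicate 2 alone, neur had no promoter summit and Ser had one, while mib1 and numb had one in the list of either replicate. The 3 others, at 9025428, 9027236 and 9028920, lay in an intron 8303, 6495 and 4811 bp from the nearest neur start. Their signals were 151.5, 172.2 and 180.4. The first held rank 3080 in replicate 1 and rank 9193 in replicate 2. The second held rank 4359 in replicate 1 and rank 2622 in replicate 2, and the third 3172 and 2916. Only the third of these intronic summits was thus among the strongest 3953 of both replicates.

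numb (FBgn0002973, chr2L:9437469-9464184, plus strand), which encodes the inhibitor of Notch inherited by one daughter of an asymmetric division, had 1 summit. It lay at 9449643, 187 bp upstream of an internal transcript start at 9449830 and 12174 bp into the gene. Its signal was 237.9 at rank 1570, with rank 1502 in replicate 1 and rank 2059 in replicate 2. Of 381 genes of like length, 54.6% had a summit and 24.7% a promoter summit.

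fng (FBgn0011591, chr3L:20925891-20949512, minus strand), a glycosyltransferase of the Golgi that modifies N and changes which ligand activates it, also had 1 summit. It lay at 20944331 in intron 1 of 6, 5181 bp from the single start. Its signal was 214.0 at rank 1905, with rank 2115 in replicate 1 and rank 1927 in replicate 2. Of 407 genes of like length, 50.1% had a summit.

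In the nucleus, mam (FBgn0002643, chr2R:13991203-14060356, plus strand), which encodes the coactivator Mastermind, held 10 of the 22 summits. They began 3315 bp and ended 39266 bp from the 5' end, or 4.79% and 56.8% of the gene's length, and the rest of the gene had no thresholded summit. Of the 10, 5 lay in intron 2 and 5 in intron 3, with gaps of 646 to 11333 bp between neighbours. None was within 500 bp of a mam start, but the 2 strongest lay upstream of internal mam starts. The summit at 14008504, with a signal of 446.6 at rank 388, was 695 bp upstream of the start at 14009199 and held rank 655 in replicate 1 and rank 271 in replicate 2. The summit at 14030469, with a signal of 428.1 at rank 429, was 1194 bp upstream of the start at 14031663 and held rank 745 in replicate 1 and rank 299 in replicate 2. The other 8 had signals of 140.8 to 311.1. Of these, the summit at 14028156 lay 464 bp from the start of CG18371 and the one at 14005754 lay 227 bp from that of an unnamed non-coding RNA beside mir-4978, all nested in mam, so those signals cannot be assigned to mam alone. Of all protein-coding genes, 34, or 0.244%, had at least 10 summits, and of the 146 genes of like length 5.48% did.

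Su(H) (FBgn0004837, chr2L:15039488-15043334, plus strand), the DNA-binding protein that N acts through, and H (FBgn0001169, chr3R:20621938-20628915, plus strand), the Hairless protein that turns Su(H) into a repressor, had no entry in any list. The nearest thresholded summit was 13716 bp from Su(H) and 69943 bp from H. Even among the 30000 pooled entries none lay in either gene or within 2000 bp of it, and the same held for the list of each replicate. A pooled entry was found at the other 8 of the 10 genes, and at 46.7% of protein-coding genes. For these 8, the share among genes of like length was higher, from 52.4% for mib1 to 90.4% for mam, so 8 of 10 is to be read against these shares too. Among genes of like length, 46.6% of 1623 genes had a pooled entry for Su(H) and 57.3% of 995 genes for H, so genes of this size with no entry were common.

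**Figure D2:**
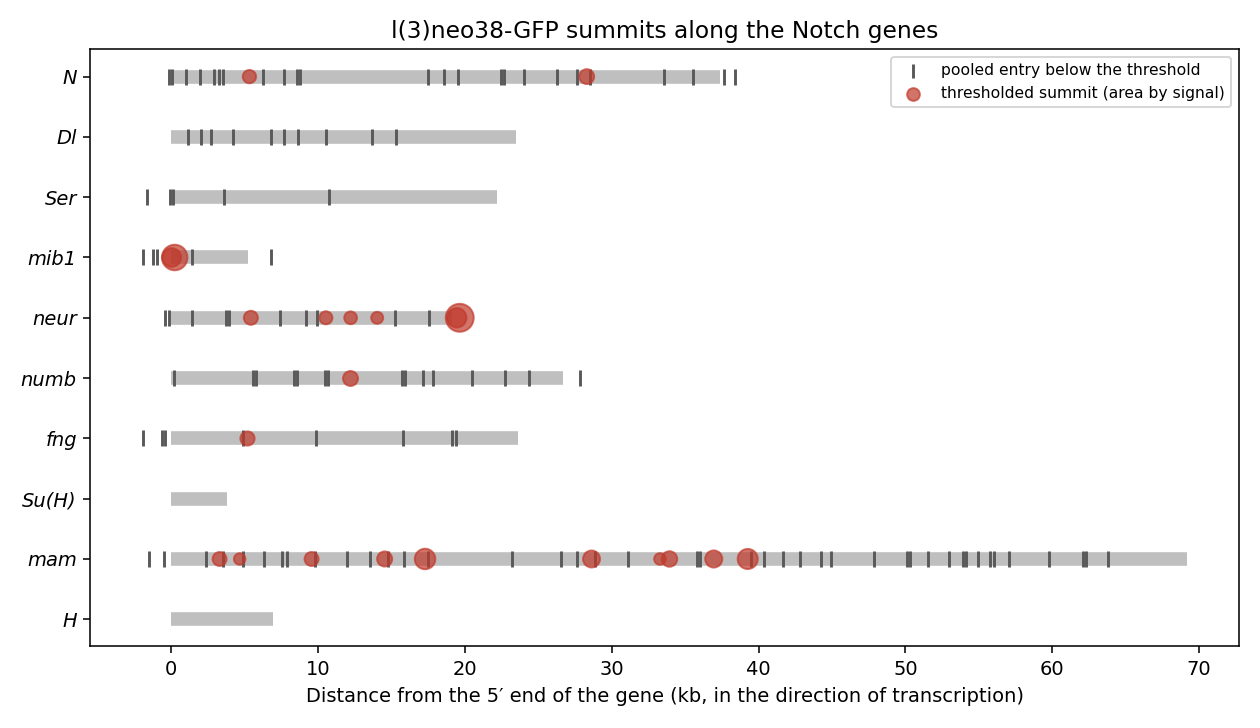
The 10 genes drawn as grey bars from their 5' end (x axis, kb in the direction of transcription), with thresholded summits as red circles whose area follows the deposited signal and weaker pooled entries as dark ticks. The 10 mam summits sit in the first 56.8% of the gene, mib1's pair at its start, neur's strongest pair beyond its 3' end, and Su(H) and H hold no entry.

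The replicates matched each other at 17 of the 22 summits, where each replicate had a summit within 100 bp among its strongest 3953 entries. Over the whole thresholded list 61.8% matched in this way. Of the other 5 summits, 3 matched in replicate 1 only (2 of neur and 1 of mam) and 2 in replicate 2 only (1 of neur and 1 of mam). All 22 had a match when all 30000 entries of each replicate list were used. Replicate 1 gave the better rank to 11 of the 22, so neither replicate ranked them higher as a whole. The signals of the 2 replicates had a Spearman correlation of 0.70 over the 22 summits and of 0.55 over the 3595 thresholded summits matched in both full lists. These are correlations across summits, which share their library and, for neighbours, their interval.

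By its strongest pooled entry, the order of the genes was neur (829.2, at the tgo start), mib1 (691.3), mam (446.6), numb (237.9), N (235.8), fng (214.0), Ser (130.1) and Dl (93.6). The ranks of the first 3 were apart in both replicates, with 69 and 74 for neur, 157 and 120 for mib1, and 655 and 271 for mam. The first place of neur rests on the summit at the tgo start, outside the gene. The strongest summit inside neur had a signal of 209.0, below that of fng, with ranks 1277 and 5357. The ranks of numb, N and fng overlapped: 1502 and 2059, 1210 and 3146, and 2115 and 1927. Those of Ser, 9674 and 2609, enclosed those of Dl, 5837 and 6934. The order within numb, N and fng, and that of Ser and Dl, therefore did not exceed the difference between replicates.

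**Figure D3:**
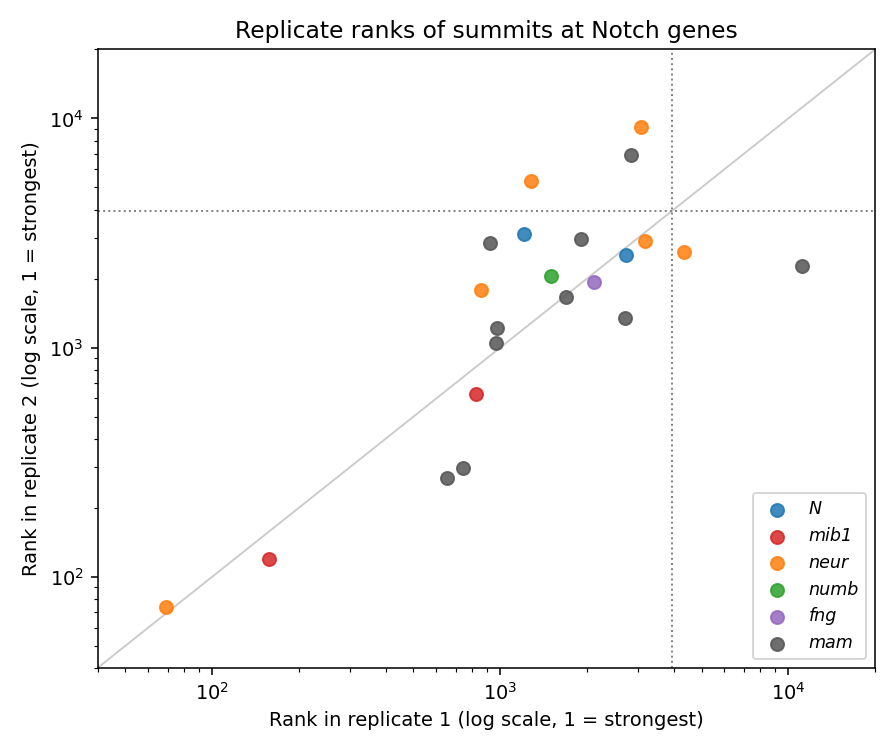
Rank of the matching summit in replicate 1 (x axis, log scale) and replicate 2 (y axis, log scale) for the 22 summits, coloured by gene, with dotted lines at rank 3953 and a diagonal of equal rank. Of the 22 points, 17 lie below 3953 on both axes. The stronger summit at tgo's start and the stronger one of mib1 sit at the strong end in both replicates. The weaker summit at tgo's start held rank 859 in replicate 1 and rank 1778 in replicate 2.

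Weaker entries were present at most of the genes. Beside the thresholded summits, the pooled list held 24 entries at N, 10 at Dl, 5 at Ser, 5 at mib1, 10 at neur, 15 at numb, 8 at fng and 42 at mam. The strongest of these at each gene had a signal of 139.8 at mib1, 137.5 at neur, 130.1 at Ser, 130.0 at mam, 129.5 at fng, 128.3 at N, 112.7 at numb and 93.6 at Dl. The thresholded list thus ended close above the strongest remaining entries of most of these genes. However, the mam entry, at 14053266, had no match within 100 bp in the list of either replicate. The numb entry, at 9460198, had none in replicate 1. The lists of the separate replicates gave like counts at N, with 24 and 29 entries, and at mam, with 58 and 49, and fewer in replicate 1 than in replicate 2 at Dl, with 8 and 17, and at Ser, with 5 and 10.

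**Figure D4:**
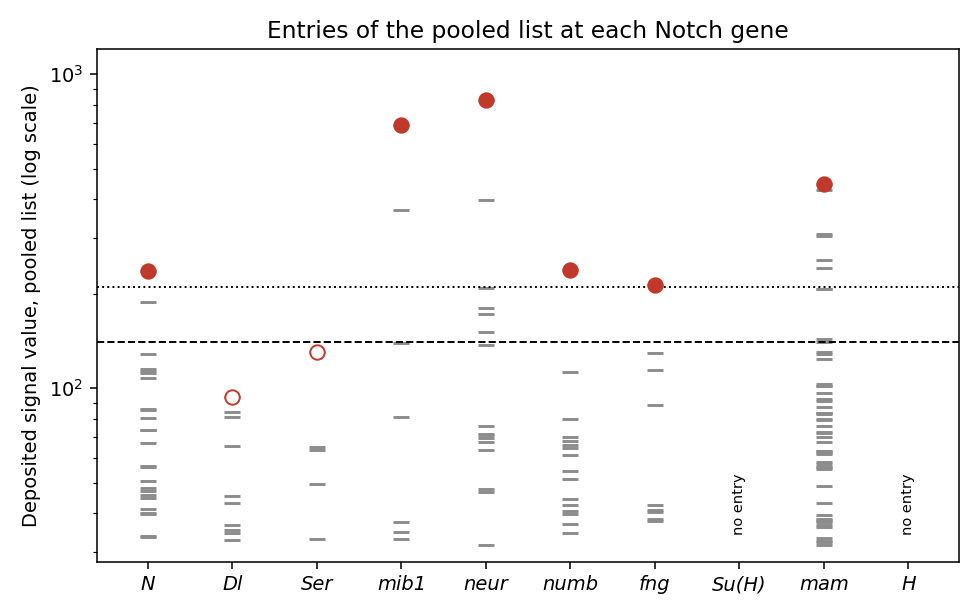
Deposited signal (y axis, log scale) of every pooled entry in each of the 10 genes or within 2 kb (x axis), with the strongest entry of each gene as a circle, filled where it is in the thresholded list and open where it is not, and the other entries as dashes. The dashed line is the lowest thresholded signal, 140.7, and the dotted line the median, 209.6. Ser's strongest entry lies just under the dashed line at 130.1, Dl's lies at 93.6, and Su(H) and H have no points.

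Other genes of the pathway were counted in 7 lists of 45 genes in all, of which 23 had a summit in the gene or within 2000 bp and 15 had a promoter summit. Of all protein-coding genes, 18.3% and 8.24% did. The E(spl) complex, a cluster of repressor and Bearded-family genes that Notch activates directly, accounted for 11 and 9 of these, out of 11 genes. Its members lie side by side and share summits, so they are not 11 separate cases. The strongest promoter summits there were at E(spl)malpha-BFM (732.8, rank 103) and E(spl)mbeta-HLH (517.0, rank 271). Among the other 34 genes, 12 had a summit and 6 a promoter summit. Of these, gro shares its strongest summit, at rank 723, with genes of the E(spl) complex, though it also has a promoter summit. The median length of the 34 was 4243 bp, against 2166 bp for all protein-coding genes, and each list holds few genes.

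Of 7 genes for receptor cleavage, 3 had a summit and 1 a promoter summit, aph-1, a subunit of gamma-secretase. Its signal was 205.0 at rank 2058, 426 bp from its start, where a start of Snx21 also lay within 500 bp. Another of the 3 had its only summit 11032 bp from its own start, within 500 bp of starts of other genes. That summit had no match in replicate 2. Of 4 genes for ligand endocytosis, 1 had a summit, lqf, the fly epsin, with 367.1 at rank 646, 358 bp from its start. None of 3 genes for receptor folding and glycosylation had one. Of 9 genes for receptor turnover and asymmetric division, 2 had a promoter summit: Su(dx), a ubiquitin ligase that acts on N, with 350.6 at rank 706, and spdo, a membrane protein needed for Notch signalling in asymmetric divisions, with 236.4 at rank 1594. Of 7 nuclear cofactors, 4 had a summit and 2 a promoter summit: gro, the corepressor Groucho, with 246.0 at rank 1470, and nej, the fly CBP acetyltransferase, with 141.3 at rank 3925. In replicate 2 the gro and nej summits held ranks 4394 and 5687, outside the strongest 3953, against 939 and 3615 in replicate 1. The nej signal was close to the lowest of the thresholded list, 140.7. Of 4 Bearded-family genes outside the E(spl) complex, 2 had a summit and none a promoter summit, Ocho with 499.3 and Tom with 150.4. The Tom summit held rank 6341 in replicate 1 and rank 2030 in replicate 2. The summit counted for Ocho lay 2520 bp from its start, and a start of lncRNA:marge lay within 500 bp of it.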

How the data were processed

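Peak lists of 2 biological replicates, which form 1 group, were used as deposited. Per the notes deposited beside the files, each replicate list was made from its dm6 alignments and a control, the pooled list from the alignments of both replicates, and the thresholded list from these 3. For the peak caller, the threshold of the irreproducible discovery rate procedure and the normalization of the signal, the labels and notes give nothing. The authors' signal value of each entry therefore served only to rank entries within a list. A summit is the interval's start plus the deposited offset. No read counts were in the lists used, so depth is unknown. Lists on dm3 were not used.

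Summits were placed on the Ensembl 115 annotation of the 6 chromosome arms, with Python 3.11.15, numpy 2.4.6 and pandas 2.3.3. Genes of like length had 0.8 to 1.25 times the length. Sequences are from the RefSeq release 6 genome. The procedures were tested on simulated data. The genes, lists and motifs were chosen with earlier results of these data known. Named outside the 10 genes are, per list, the 2 genes with the strongest promoter summit, or the strongest summit where there is none, and genes at a summit of the 10, except ago and CtBP, chosen after their values were seen. An older symbol was needed to match 3 of the 45 listed genes. Alternatives covered the threshold, each replicate's own list, flanks, assignment, windows, match distance and motifs.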

Additional observations from a re-analysis of the deposited data

How the results depend on the processing

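The count of 22 summits was 13 in the stronger 1976 thresholded peaks and 14 when a summit counted only where the nearest protein-coding start was that of the gene. With the list of one replicate in place of both it ranged from 20 (without replicate 2) to 26 (without replicate 1). Without summits within 500 bp of another gene's start, an alternative chosen after seeing the data, it was 18. The 6 genes with a summit became 7 without replicate 1, where Ser joined, and with flanks of 5000 bp, and stayed at 6 in number under the other alternatives run. The 3 genes with a promoter summit were 2 among the stronger peaks and with 250 bp, and 4 with 1000 bp. By gene, the stronger peaks left 1 summit at N, 2 at neur and 6 at mam, nearest-start assignment left 1, 3 and 6, and without replicate 1 fng had 3. The C-rich 8-mer was in 0 windows in each width tried, whereas a run of at least 4 C or G, added after seeing the data, was in 11. In all, 27 of 30 overall values and 70 of 80 values by gene moved by at most 1.5 times. These include values that were 0 as reported and stayed 0, such as all those of Dl, Su(H) and H and those of the C-rich 8-mer. Such values add little to these shares as a measure of stability. Depth is unknown, so a gene without a summit is one where none was detectable. No paired analysis was possible because there is 1 group.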

Other observations

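In the window from 250 bp before to 50 bp after any annotated transcript start of a gene, GAGAG was present at 6 of the 10 genes (Dl, Ser, neur, numb, fng and mam), against 36.4% of protein-coding genes, where a gene with several starts has several windows. Of these 6, neur, numb, fng and mam had a thresholded summit, and Dl and Ser had none. Among the genes with a promoter summit, neur and numb had GAGAG there. The third, mib1, with the strongest promoter summit of the 10 genes, had no GAGAG there. Whether GAGAG and summits go together was not tested. The C-rich 8-mer CCCACCCC, the Su(H) site and the Zelda site were in the windows of none of the 10 genes and in 1.36%, 4.22% and 2.30% of those of protein-coding genes. A run of at least 4 C or G was in 4 (N, Ser, numb and mam), against 52.5%.

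Among the nuclear cofactors, ago and CtBP had strong summits more than 500 bp from a start. Both were chosen after their values were seen. At ago, which encodes an F-box protein that targets activated Notch for degradation, a summit 624 bp from a start had a signal of 801.9 at rank 68, with rank 182 in replicate 1 and rank 34 in replicate 2. At CtBP, a corepressor recruited by Hairless, a summit 941 bp from a start had a signal of 511.1 at rank 287, with rank 198 in replicate 1 and rank 643 in replicate 2. H itself had no entry in any list.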
